A study of Mus musculus with 35 samples.

Results

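The accessibility of the promoters of 10 imprinted genes was followed in mouse embryonic stem cells with and without the enzymes that write or remove DNA methylation. The genes were Plagl1, Impact, Peg10, Mest, Snrpn, Nnat, Grb10, Airn, Mcts2 and Nap1l5, each of which has a germline differentially methylated region that carries methylation on the maternal copy. The ATAC-seq data give 1 value per library for each of 1362779 tiles of 2 kb on GRCm38, and for each member the tile with its promoter and the tiles up to 4 kb to each side were taken. Several members have more than 1 annotated start, so the 10 genes gave 16 promoter tiles, in windows of 78 distinct tiles. RefSeq gave a start with its strand for 13 of the 16. Peg10 and Impact were placed at the end of the RefSeq gene that their known strand makes the 5′ end. That end of Impact held few reads, so the tile of the gene body with the highest mean level was added, a choice made after the levels had been seen.

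Genomic imprinting is the expression of a gene from the copy of 1 parent. At maternally methylated regions the oocyte lays down CpG methylation that escapes the erasure after fertilisation, and the maternal copy then stays methylated while the paternal copy is unmethylated and usually active. DNMT1 copies the mark at each cell division, DNMT3A and DNMT3B can set it anew, and TET enzymes oxidise it. The zinc finger protein ZFP57 binds the methylated hexamer TGCCGC and recruits TRIM28 to keep the mark in embryonic stem cells. Imprints erased in cultured stem cells are as a rule not regained on differentiation.

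ATAC-seq uses a transposase that inserts adapters into open DNA, and was done on 10000 cells per library. DNMT_KO cells lack Dnmt1, Dnmt3a and Dnmt3b, and DNMT_WT is the parental line of that triple knockout. TET_KO cells lack Tet1, Tet2 and Tet3, again as a triple knockout, with TET_WT as the parent. All 4 lines were sampled as stem cells in 2i and Lif (D0) and after 1 day (D1) or 2 days (D2) of conversion to epiblast-like cells. This made 12 groups and 35 libraries, 3 per group apart from TET_KO at D2 with replicates 1 and 3 alone. Each genotype is a single line as far as the labels say, nothing says that the replicates came from separate cultures, and the knockouts themselves were not checked here. The p-values therefore measure the spread between these libraries.

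The promoters that carry most of the comparisons below are shown first, as RefSeq gives them for GRCm38.p6 on the strand of the gene (300 bases each, most of them upstream of the start). Capitals mark the ZFP57 hexamer TGCCGC on either strand (read as GCGGCA on the other), and in Nnat the longer run of capitals is the palindromic motif of NRF1, a transcription factor whose binding DNA methylation blocks. Plagl1, Snrpn and Mest are shown for their values in the DNMT lines, Nap1l5 for its 2 hexamers and Nnat for its NRF1 motif.
Plagl1, chr10:13090582-13090881: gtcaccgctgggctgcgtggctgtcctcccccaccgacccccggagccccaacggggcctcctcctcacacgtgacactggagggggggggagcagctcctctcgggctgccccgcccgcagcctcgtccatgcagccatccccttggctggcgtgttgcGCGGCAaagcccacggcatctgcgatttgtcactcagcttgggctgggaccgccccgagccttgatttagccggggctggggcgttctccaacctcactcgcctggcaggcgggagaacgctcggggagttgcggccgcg
Snrpn start 4, chr7:60005150-60005449: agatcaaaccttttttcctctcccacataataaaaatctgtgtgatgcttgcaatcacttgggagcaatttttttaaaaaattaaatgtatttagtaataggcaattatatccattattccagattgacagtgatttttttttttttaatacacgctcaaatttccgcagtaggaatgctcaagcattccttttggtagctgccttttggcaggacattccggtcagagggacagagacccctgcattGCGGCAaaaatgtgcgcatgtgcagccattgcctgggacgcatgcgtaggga
Mest main start, chr6:30737800-30738099: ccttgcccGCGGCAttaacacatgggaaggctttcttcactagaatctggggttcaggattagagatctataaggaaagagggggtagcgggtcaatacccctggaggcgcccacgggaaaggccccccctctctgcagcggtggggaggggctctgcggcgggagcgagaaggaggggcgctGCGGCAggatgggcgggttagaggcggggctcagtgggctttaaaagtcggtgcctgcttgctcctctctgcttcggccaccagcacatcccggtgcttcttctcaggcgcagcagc
Nap1l5, chr6:58907077-58907376: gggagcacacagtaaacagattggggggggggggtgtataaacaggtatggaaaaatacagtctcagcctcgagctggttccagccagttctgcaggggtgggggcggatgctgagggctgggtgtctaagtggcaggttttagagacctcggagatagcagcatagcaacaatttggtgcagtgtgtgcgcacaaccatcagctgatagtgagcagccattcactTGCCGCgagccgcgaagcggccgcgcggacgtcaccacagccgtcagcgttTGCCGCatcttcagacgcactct
Nnat, chr2:157559828-157560127: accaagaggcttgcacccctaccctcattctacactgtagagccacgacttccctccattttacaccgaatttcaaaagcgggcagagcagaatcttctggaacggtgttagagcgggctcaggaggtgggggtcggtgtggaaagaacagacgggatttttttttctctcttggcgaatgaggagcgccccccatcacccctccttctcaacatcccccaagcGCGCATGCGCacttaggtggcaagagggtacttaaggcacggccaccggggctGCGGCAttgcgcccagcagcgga

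No sequence was found for Peg10, and promoters on chromosome 18, which holds Impact, were left out. Sequences were thus read for 8 of the 10 members. The hexamer was present at 7 of them: once in Plagl1, Snrpn start 4, Nnat, Mcts2 and the 5′ start of Grb10, and 2 times each in Nap1l5 and the Mest main start. Among 32544 RefSeq promoters of the same length, 11.7% held it, and 0.974% held the NRF1 motif. These shares are of single promoters, while the count of 7 is of genes, of which Snrpn, Mest and Grb10 have several starts. The promoters were not matched for their number of CG dinucleotides. The promoters ranged from 2 CG dinucleotides at Snrpn start 1 and 3 at Airn to 45 at the 5′ start of Grb10, against a median of 7. Plagl1 had 26, Mcts2 25, and Nnat, Nap1l5 and the Mest main start 17 each, while Snrpn start 4 had 7. These matches describe the letters only. In the Mest main promoter, 201 of the 300 bases lie in the tile upstream of the one that holds the start, which matters for the Mest values below. Other promoters are split in the same way. The neighbouring tile holds 228 of the 300 bases at Snrpn start 3, 221 at the inner start of Grb10 and 173 at Nnat.

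Levels are log2 RPKM (reads per kilobase of tile, scaled to the library total) after quantile normalisation over 143624 tested tiles, and all tiles have the same length. Of the 16 promoter tiles, 12 lay among the highest 10% of tiles and are called open here. The share of all gene start tiles in that set was not counted, so this number is not a result about the members. The 12 open tiles held 2 to 112 reads per library, with a median of 22. The 12 include the body tile of Impact, an inhibitor of the kinase GCN2. That tile was picked for its level, so its rank is not a result. Whether a start of Impact lies in it was not checked, and it may hold the main promoter. It had a mean level of 1.85 over the 35 libraries (range 1.04 to 2.61). Among the tiles placed by annotation, Mcts2, a retrogene within H13, was highest at 1.47 (0.78 to 2.22). Snrpn start 4, the promoter of a splicing protein gene, followed at 1.24 (−0.09 to 2.08). Peg10, a gene derived from a retrotransposon and needed in the placenta, averaged 1.17. Grb10, an adaptor that dampens insulin signalling, averaged 1.10 at its 5′ start and 1.06 at its inner start. Mest, a hydrolase-fold protein gene, averaged 1.07 at the main start and 0.21 at the upstream start. Plagl1, a zinc finger transcription factor, averaged 0.93 and Nap1l5, a retrogene within Herc3, 0.77. Nnat, a small membrane protein gene of neural tissue, averaged 0.35 and Airn, the antisense RNA that silences Igf2r, 0.33. Neighbours in this order overlapped over their libraries in every case. The 3 distal Snrpn starts averaged −2.41, −1.59 and −1.59 with at most 19 reads in a library, and the annotated 5′ end of Impact −0.57. A library cannot tell the parental copies apart, nor fewer cells with an open promoter from fewer insertions per cell.

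**Figure D1:**
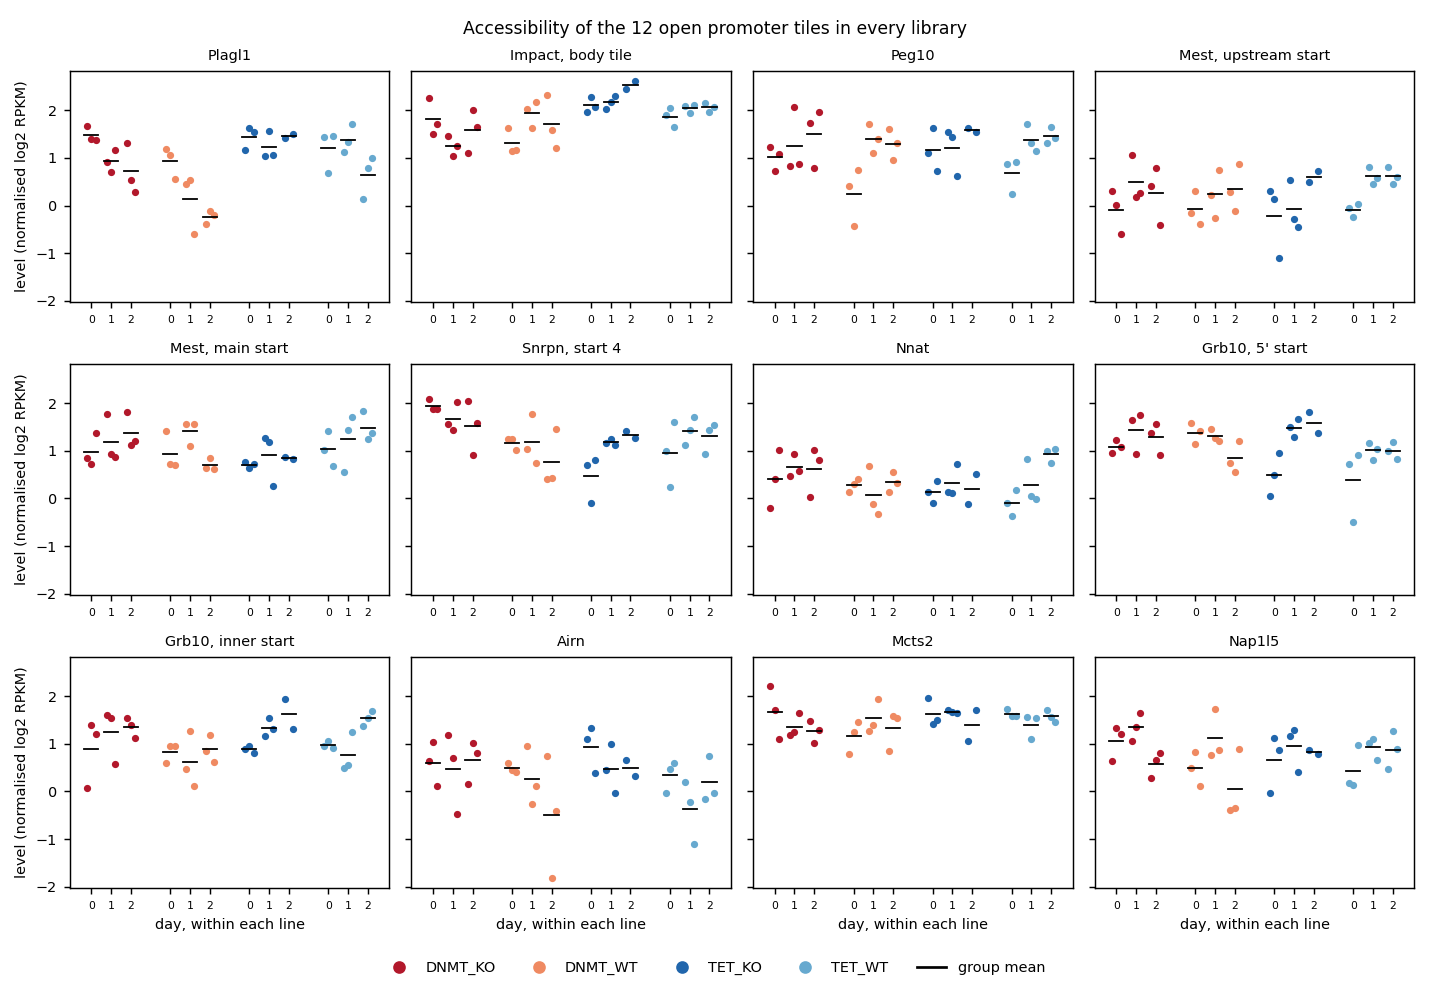
Level (quantile-normalised log2 RPKM, vertical axis) of the 12 open promoter tiles in every library, by day (horizontal axis) within DNMT_KO, DNMT_WT, TET_KO and TET_WT; each point is a library and each bar a group mean. The Plagl1 tile stands between −0.39 and −0.11 in the DNMT_WT libraries at D2, below every other D2 library.

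Without DNMTs, no member promoter tile changed by the test. Levels were compared in limma with Benjamini-Hochberg adjustment over all tested tiles, as DNMT_KO minus DNMT_WT within each day and then averaged over days. None of the 16 promoter tiles and none of the 78 window tiles was called at an adjusted p under 0.05, and limma voom on the reads recovered from the values also called none (0.00139% of all tested tiles in voom). Of all tested tiles 0.00557% were called, 8 of 143624, so a count of 0 was near the background. At an unadjusted p under 0.05 there were 5 of the 16 promoter tiles and 14 of the 78 window tiles, against 8.42% of tiles at gene starts and 7.94% of all tested tiles. The difference was positive at 13 of the 16 with a median of 0.22, against a median of 0.01 over 26850 gene start tiles, of which 50.8% were positive. Because the members share libraries, these counts carry no test. At 13 of 16 tiles the upper end of the 95% interval lay below 1 log2 unit, that is, below a 2-fold higher level. That count depends on the estimate as well as on the width of the interval.

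**Figure D2:**
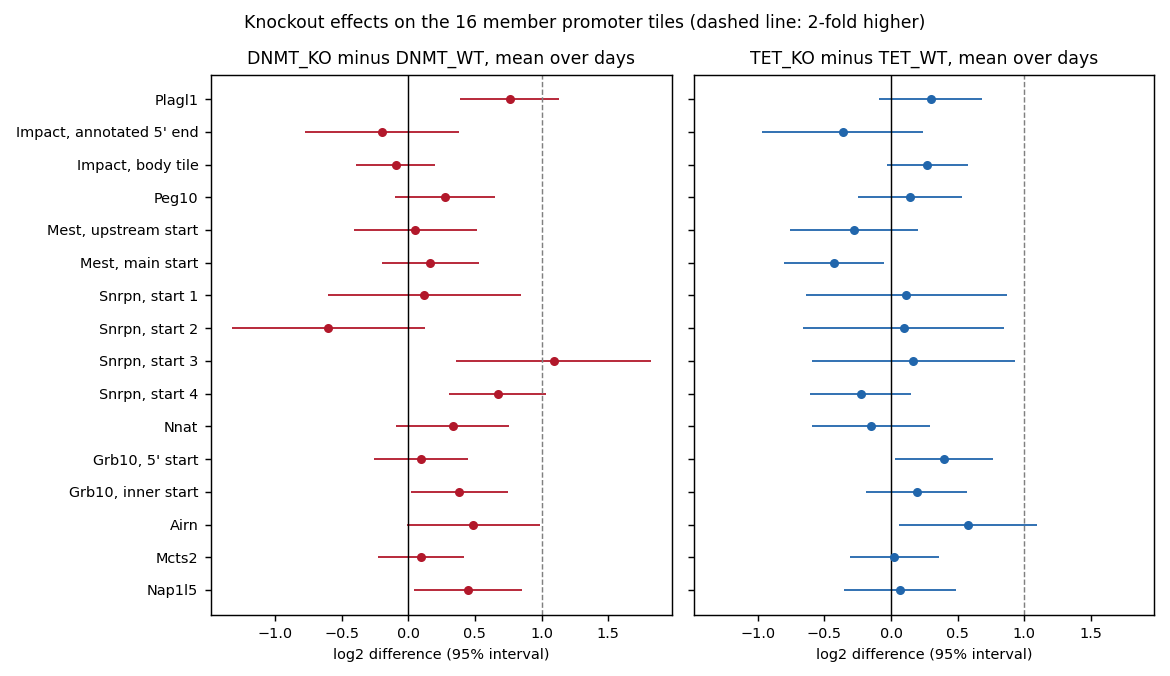
Log2 difference (horizontal axis) with its 95% interval at the 16 promoter tiles, for DNMT_KO minus DNMT_WT (left) and TET_KO minus TET_WT (right), averaged over the 3 days; the dashed line marks a 2-fold higher level. In the DNMT panel 5 tiles have intervals above 0 (Snrpn start 3, Plagl1, Snrpn start 4, Nap1l5 and the inner start of Grb10), and no tile was called in either panel.

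Plagl1 had the smallest p of the 16 promoter tiles in the DNMT lines. At D0 its promoter tile stood at 1.66, 1.39 and 1.36 in DNMT_KO, against 1.19, 1.05 and 0.56 in DNMT_WT. At D1 the levels were 0.92, 0.70 and 1.17 in DNMT_KO, against 0.46, 0.54 and −0.60 in DNMT_WT. At D2 they were 1.31, 0.54 and 0.29 in DNMT_KO, against −0.39, −0.11 and −0.19 in DNMT_WT. The groups did not overlap on any of the 3 days, at a tile singled out for its p. Here and below such separation is a description, as the share of all tested tiles that show it was not counted. In reads, D2 libraries held 26, 13 and 11 in DNMT_KO and 7, 7 and 7 in DNMT_WT. The mean difference was 0.76 ± 0.19 (SE), with a 95% interval of 0.39 to 1.13 and an adjusted p of 0.2. By day it was 0.54 ± 0.32 at D0, 0.80 ± 0.32 at D1 and 0.95 ± 0.32 at D2, and the change from D0 to D2 was 0.41 ± 0.46 (adjusted p = 0.94). Averaged over days, the other 4 tiles of the window differed by −0.40 to 0.42, and the sum over the 5 tiles by 0.27 (adjusted p = 0.54), where 0.0375% of windows were called. The tile 4 kb downstream, with 0 to 8 reads in each DNMT library, differed by 2.3 ± 0.57 at D1 (adjusted p = 0.17) and by −1.34 ± 0.57 at D2 (adjusted p = 0.48), and both enter that average with opposite signs.

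At Snrpn, start 4 is the open start and lies in the imprinting control region that in humans is lost in some cases of Prader-Willi syndrome. Its tile stood at 2.08, 1.88 and 1.88 in DNMT_KO at D0, against 1.25, 1.24 and 1.01 in DNMT_WT. At D1 it stood at 1.56, 1.44 and 2.02 in DNMT_KO, against 1.04, 1.77 and 0.74 in DNMT_WT. At D2 the values were 2.05, 0.90 and 1.58 in DNMT_KO, against 0.41, 0.42 and 1.46 in DNMT_WT. The groups were apart at D0 only and overlapped at D1 and D2. The mean difference was 0.67 ± 0.18 (interval 0.31 to 1.04, adjusted p = 0.27). The next tile downstream differed by 0.62 ± 0.20 (adjusted p = 0.40). Start 3, with 0 to 15 reads per library, had the largest difference of the 16 promoter tiles, 1.09 ± 0.37 (adjusted p = 0.41), and starts 1 and 2 gave 0.12 ± 0.36 and −0.60 ± 0.36.

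At Mest the values moved in the tile upstream of the main start, which holds 201 of the 300 promoter bases shown above. At D0 this tile (chr6:30736001-30738000) stood at 0.85, 1.54 and 1.26 in DNMT_KO, against −1.33, 0.45 and −0.24 in DNMT_WT. At D1 it stood at 1.37, 0.44 and 0.97 in DNMT_KO, against 1.5, 1.19 and 1.31 in DNMT_WT. At D2 it stood at 1.85, 1.12 and 1.38 in DNMT_KO, against 0.95, −0.58 and 0.75 in DNMT_WT. DNMT_KO libraries were thus above all DNMT_WT libraries at D0 and D2, and overlapped them at D1. In reads, D0 libraries held 18, 28 and 24 in DNMT_KO and 4, 11 and 11 in DNMT_WT. The difference was 1.59 ± 0.35 at D0, −0.41 ± 0.35 at D1 and 1.08 ± 0.35 at D2, and 0.75 ± 0.20 on average (adjusted p = 0.25). In a separate fit without the D1 libraries, normalised anew and chosen after the data were seen, the average over D0 and D2 was 1.29 with an adjusted p of 0.046. It was the only 1 of the 78 window tiles called for DNMT_KO against DNMT_WT in that fit, where 0.00487% of all tested tiles were called. The tile with the start itself differed by only 0.16 ± 0.18 (adjusted p = 0.87), and that of the upstream start by 0.05 ± 0.23 (adjusted p = 0.98).

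In the TET lines the same Mest tile was lower in the knockout at D2. It stood at 1.05, 0.79 and 0.73 in TET_KO at D0, against 1.06, 0.75 and 0.67 in TET_WT. At D1 it stood at 1.37, 0.40 and 0.51 in TET_KO, against 0.98, 1.05 and 1.09 in TET_WT. At D2 it stood at 0.49 and 0.02 in TET_KO, against 1.5, 1.27 and 1.67 in TET_WT. The groups overlapped at D0 and D1 and were apart at D2. The difference was 0.03 ± 0.35 at D0, −0.28 ± 0.35 at D1 and −1.22 ± 0.39 at D2 (adjusted p = 0.24), and −0.49 ± 0.21 on average (adjusted p = 0.18). The DNMT effect minus the TET effect was 1.25 ± 0.29, with a 95% interval of 0.66 to 1.83 and an adjusted p of 0.013. This was the only 1 of the 78 window tiles called in that comparison, in which 1.63% of all tested tiles were called. The call held when any 1 of the 35 libraries was left out (1.09 to 1.38), and was lost when tiles of all levels entered the fit (1.24, adjusted p = 0.10). Snrpn start 4 came next with 0.90 ± 0.26 (adjusted p = 0.057), and passed the threshold in 4 alternative settings (values as deposited, the highest 5% of tiles, a pseudocount of 2 reads, voom: 0.84 to 1.13), in which 0.603% to 2.81% of all tested tiles were called. It also passed without DNMT_KO D2 replicate 2, DNMT_WT D1 replicate 2, DNMT_WT D2 replicate 3 or TET_WT D0 replicate 2 (1.00 to 1.02), where 0.982% to 1.68% were called. Summed over 5 tiles, the window of the Mest main start gave 0.69 (adjusted p = 0.0047) and that of the upstream start, which shares tiles with it, 0.67 (adjusted p = 0.019), where 4.7% of 26637 such windows were called.

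**Figure D3:**
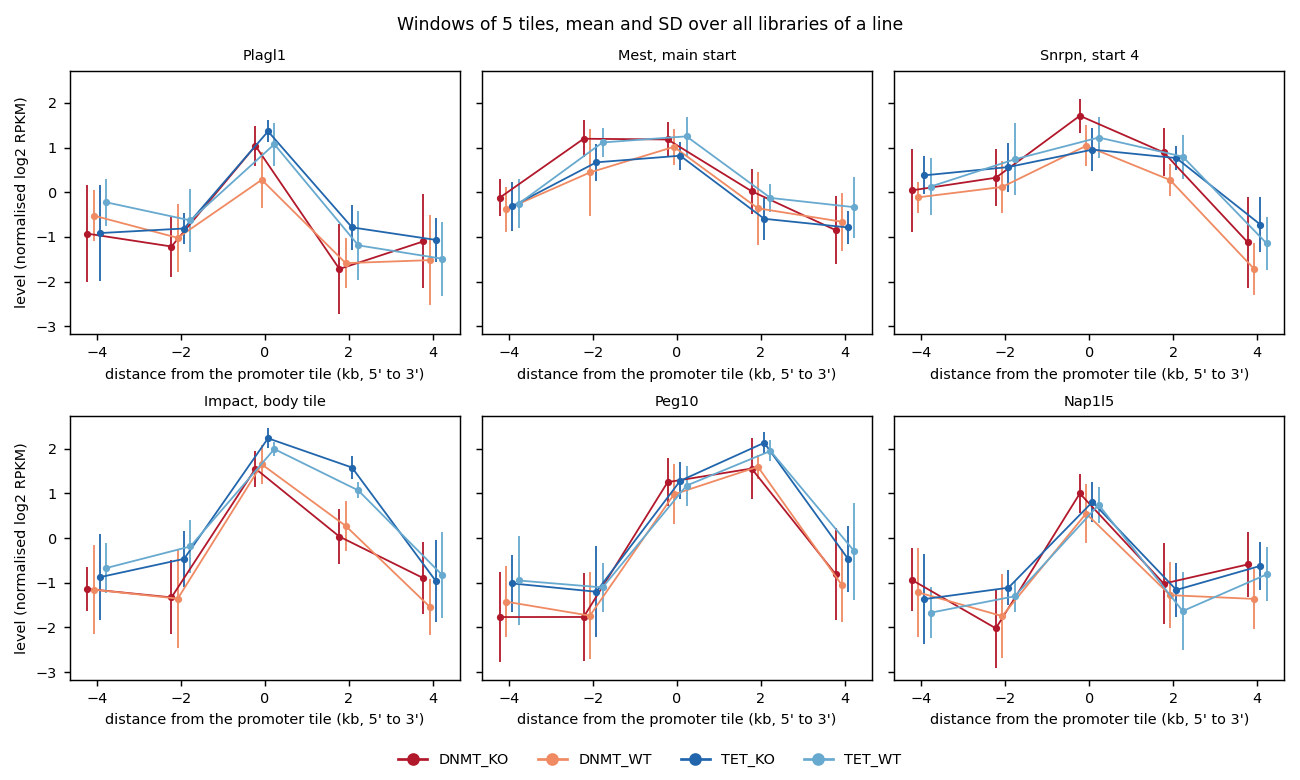
Mean level with its SD (quantile-normalised log2 RPKM, vertical axis) over all days of DNMT_KO, DNMT_WT, TET_KO and TET_WT, by distance of the tile from the promoter tile (kb, horizontal axis) for 6 members. At Mest the tile 2 kb upstream is close to the start tile in DNMT_KO and lower than it in DNMT_WT, with a wide spread there.

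The other members differed less between DNMT_KO and DNMT_WT. Nap1l5 ranged from 0.28 to 1.64 in the 9 DNMT_KO libraries, with a median of 1.06, and from −0.39 to 1.72 in DNMT_WT, with a median of 0.77. The lines overlapped widely and the difference was 0.45 ± 0.20 (adjusted p = 0.58). Airn ranged from −0.48 to 1.19 in DNMT_KO with a median of 0.70, and from −1.81 to 0.95 in DNMT_WT with a median of 0.40. Its difference of 0.49 ± 0.25 (adjusted p = 0.64) came mostly from D2, where the difference was 1.15 ± 0.43 (adjusted p = 0.40) and 1 DNMT_WT library stood at −1.81. Grb10 differed by 0.38 ± 0.18 at its inner start (adjusted p = 0.61) and by 0.10 ± 0.18 at its 5′ start. Nnat differed by 0.33 ± 0.21 (adjusted p = 0.73) and Peg10 by 0.27 ± 0.19 (adjusted p = 0.76). At Mcts2 the difference was 0.09 ± 0.16 and its interval, −0.23 to 0.41, lies inside a 2-fold change in either direction. The Impact body tile gave −0.10 ± 0.15 with an interval of −0.39 to 0.20. Its daily differences pointed both ways, 0.51 ± 0.26 at D0 and −0.68 ± 0.26 at D1 (adjusted p = 0.87 and 0.43). By day none of the 78 window tiles was called at D0, D1 or D2 in limma or in voom, and 13, 9 and 13 had an unadjusted p under 0.05, against 5.73%, 8.42% and 8.55% of all tested tiles. By the adjusted p, 0% were called at D0, 0.00627% at D1 and 0.0418% at D2.

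Without TETs, no member promoter tile changed by the test either, while 4.64% of all tested tiles were called. In limma 0 of 16 promoter tiles and 0 of 78 window tiles passed, and 3 of 16 and 10 of 78 had an unadjusted p under 0.05, against 18.4% of all tested tiles. Limma voom called 4 of the 78 window tiles and 10.5% of all tested tiles, and the 4 included the Airn promoter tile (0.60, adjusted p = 0.0475), the tile upstream of it (0.92, adjusted p = 0.0462) and the tile downstream of the Nnat start (0.70, adjusted p = 0.0446; 0.78 ± 0.28 in limma, adjusted p = 0.091). The other was the tile downstream of the Impact body tile, which ranged from 1.13 to 1.97 in the 8 TET_KO libraries and from 0.75 to 1.31 in the 9 TET_WT libraries. The lines overlapped there, and the difference was 0.49 ± 0.22 in limma (adjusted p = 0.2) and 0.47 in voom (adjusted p = 0.0309). Differences were positive at 11 of the 16 promoter tiles with a median of 0.11, close to the median of 0.10 over gene start tiles. At 15 of the 16 the interval lay below 1 log2 unit. With the values as deposited, the median of all tested tiles was shifted by −0.16 in TET_KO, which the normalisation removes, and 2 small positive differences turned sign (Mcts2 and Nap1l5).

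Airn had the largest TET difference among the promoter tiles. At D0 it stood at 1.11, 1.32 and 0.38 in TET_KO, against −0.04, 0.46 and 0.60 in TET_WT. At D1 the levels were 0.44, 1.00 and −0.04 in TET_KO, against 0.20, −0.22 and −1.10 in TET_WT. At D2 they were 0.66 and 0.31 in TET_KO, against −0.16, 0.75 and −0.03 in TET_WT. The lines overlapped on every day, and the difference was 0.58 ± 0.26 (interval 0.06 to 1.10, adjusted p = 0.20). The Mest main start pointed the other way. Its tile ranged from 0.27 to 1.26 in the 8 TET_KO libraries with a median of 0.80, and from 0.56 to 1.83 in TET_WT with a median of 1.38. The difference was −0.43 ± 0.19 (adjusted p = 0.19), and summed over its 5 tiles −0.43 with an adjusted p of 0.0073, a call made for 8.75% of windows.

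The remaining members lay within small differences between TET_KO and TET_WT. The 5′ start of Grb10 differed by 0.40 ± 0.19 (adjusted p = 0.23) and its inner start by 0.19 ± 0.19. The Impact body tile ranged from 1.96 to 2.61 in TET_KO and from 1.65 to 2.15 in TET_WT, a difference of 0.27 ± 0.15 (adjusted p = 0.35), and its window sum gave 0.33 (adjusted p = 0.039). Plagl1 differed by 0.30 ± 0.19, Peg10 by 0.14 ± 0.20, Nap1l5 by 0.07 ± 0.21 and Mcts2 by 0.02 ± 0.17. Nnat gave −0.15 ± 0.22, the upstream start of Mest −0.28 ± 0.24 and Snrpn start 4 −0.23 ± 0.19. The intervals of these promoter tiles ran from −0.76 to 0.76. By day limma called 0 of 78 window tiles at D0, D1 and D2, with 2, 4 and 5 at an unadjusted p under 0.05, against 10%, 9.03% and 8% of all tested tiles. Voom called 1, the Mest tile described above, at D2 (−1.26, adjusted p = 0.042), where it called 0.593% of all tested tiles. In limma, 0.247% of all tested tiles were called at D0, 0.0905% at D1 and 0.136% at D2.

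By the ratio of reads in tiles to the library total, values at D0 and D2 were made alike within each pair of lines. Those at D1 were made differently, so time was followed from D2 against D0. The labels do not say whether the libraries of these days were prepared together. Of the 78 window tiles 1 was called in DNMT_KO, where 2.57% of all tested tiles were called, and 3 in DNMT_WT, where the share was 2.44%. At an unadjusted p under 0.05 there were 7 in DNMT_KO and 17 in DNMT_WT, against 13.8% and 13.7% of all tested tiles. None was called in TET_KO (1.2% of tiles) or in TET_WT (1.05%), where 9 and 8 had an unadjusted p under 0.05, against 10% and 8.66% of all tested tiles. Voom called 1 window tile in TET_KO and 4 in TET_WT, where it called 2.19% and 4.77% of all tested tiles.

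Plagl1 was the only 1 of the 16 promoter tiles called, and it fell in DNMT_WT. The D2 libraries of DNMT_WT stood at −0.39, −0.11 and −0.19, against 1.19, 1.05 and 0.56 at D0. The days did not overlap, and the difference was −1.17 ± 0.32 (interval −1.81 to −0.52, adjusted p = 0.029). In the other lines it was −0.75 ± 0.32 in DNMT_KO (adjusted p = 0.25), 0.02 ± 0.36 in TET_KO (adjusted p = 0.996) and −0.55 ± 0.32 in TET_WT (adjusted p = 0.70). The DNMT_WT call was lost when any 1 of 5 of its 6 libraries was left out (−1.36 to −1.04 over all 6), the exception being replicate 3 at D0, and in voom (−1.10, adjusted p = 0.20).

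The Peg10 estimate was above 0 in all 4 lines, as were those of Nnat, the upstream start of Mest and the inner start of Grb10. Some were small next to their error, such as 0.06 ± 0.37 for Nnat and 0.05 ± 0.32 for the inner start of Grb10 in DNMT_WT. Of all gene start tiles, 55.6% to 57.4% were positive in a single line. The share positive in all 4 lines was not counted. The Peg10 promoter tile stood at 1.60, 0.96 and 1.30 in DNMT_WT at D2, against 0.40, −0.43 and 0.76 at D0, a difference of 1.05 ± 0.33 (adjusted p = 0.066). It was 0.78 ± 0.33 in TET_WT (adjusted p = 0.39), 0.48 ± 0.33 in DNMT_KO and 0.44 ± 0.37 in TET_KO. The tile downstream of it was called in DNMT_KO. That tile stood at 2.19, 1.71 and 2.11 at D2, against −0.04, 1.11 and 1.74 at D0, and rose by 1.07 ± 0.27 (adjusted p = 0.015). The days overlapped, and without replicate 1 at D0 the difference was 0.58 with an adjusted p of 0.34. Without replicate 1 or replicate 3 at D2 it was 0.97 (adjusted p = 0.089) and 1.01 (adjusted p = 0.067).

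The other 2 tiles called in DNMT_WT held few reads. The Impact tile 2 kb upstream of the body tile had 8, 4 and 6 reads at D2, against 2, 0 and 2 at D0, and differed by 2.25 ± 0.53 (adjusted p = 0.0067). Without replicate 2 at D0, the library with 0 reads, the difference was 1.91 (adjusted p = 0.074). The Nap1l5 tile 4 kb upstream had 7, 6 and 9 reads at D2, against 1, 2 and 3 at D0, and differed by 2.15 ± 0.61 (adjusted p = 0.034). That call was lost when any 1 of the 6 libraries was left out (1.84 to 2.33). The fitted difference at the Impact tile depends on the value given to an empty tile.

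**Figure D4:**
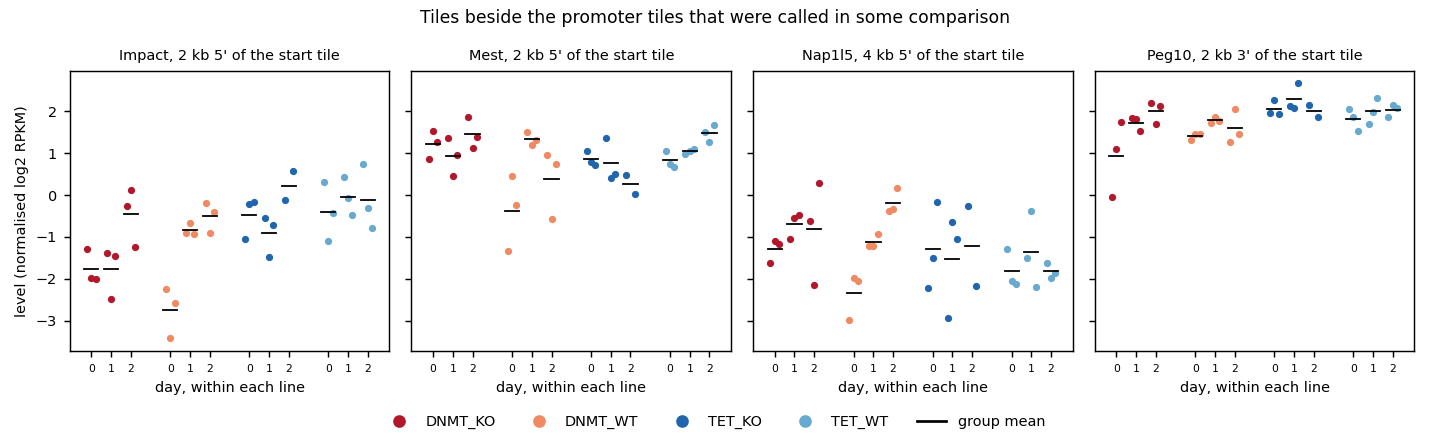
Level (quantile-normalised log2 RPKM, vertical axis) in every library, by day (horizontal axis) within each line, of the 4 tiles beside promoter tiles that were called in some comparison; points are libraries and bars group means. The Mest tile at D0 stands above 0.8 in all DNMT_KO libraries, and in DNMT_WT at −1.33, 0.45 and −0.24.

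Voom called Nnat in TET_WT and the 5′ start of Grb10 in TET_KO, where it called 4.77% and 2.19% of all tested tiles. Nnat stood at 1.00, 0.75 and 1.04 in TET_WT at D2, against −0.09, −0.37 and 0.17 at D0. The days did not overlap, and the difference was 1.02 ± 0.37 in limma (adjusted p = 0.23) and 0.99 in voom (adjusted p = 0.0145). In TET_KO the Nnat tile differed by 0.05 ± 0.41, and the TET effect at D2 minus that at D0 was −0.97 ± 0.55 (adjusted p = 1). The 5′ start of Grb10 stood at 1.81 and 1.38 in TET_KO at D2, against 0.05, 0.49 and 0.95 at D0, a difference of 1.10 ± 0.34 in limma (adjusted p = 0.11) and 1.07 in voom (adjusted p = 0.035). In TET_WT it differed by 0.62 ± 0.31 (adjusted p = 0.57). Snrpn start 4 differed by 0.87 ± 0.35 in TET_KO (adjusted p = 0.32) and by −0.44 ± 0.32 in DNMT_KO (adjusted p = 0.60). Airn gave −0.97 ± 0.43 in DNMT_WT (adjusted p = 0.28).

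**Figure D5:**
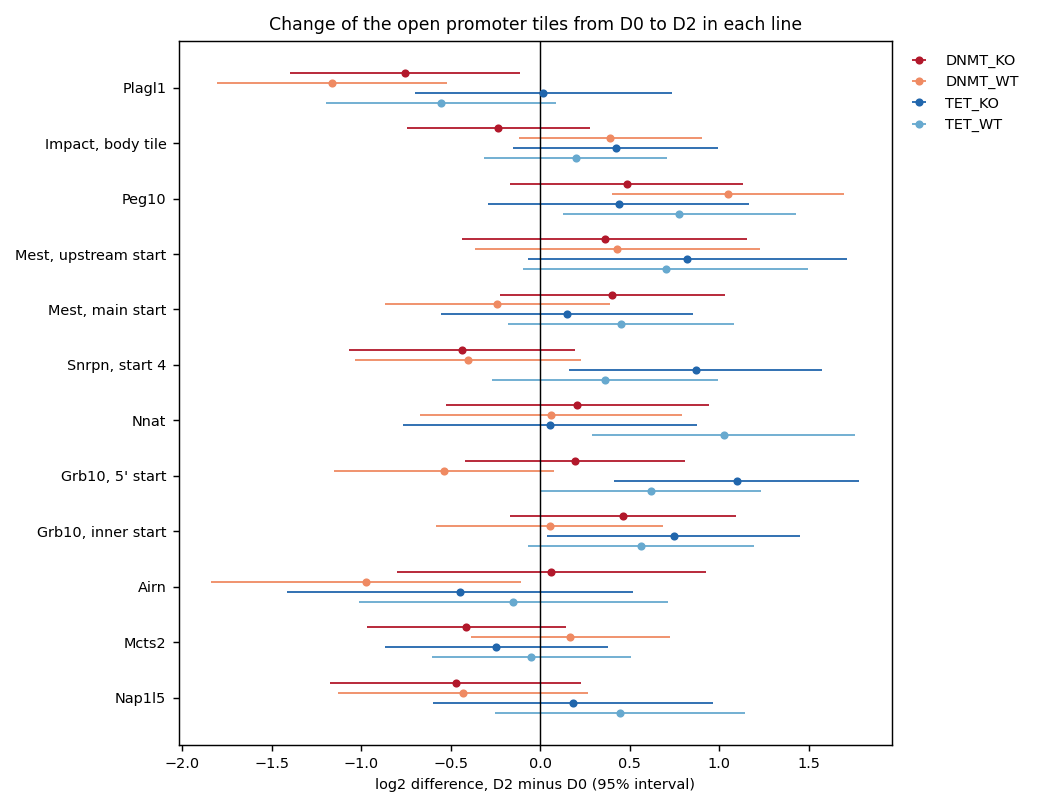
Log2 difference of D2 minus D0 (horizontal axis) with its 95% interval for the 12 open promoter tiles (vertical axis) in DNMT_KO, DNMT_WT, TET_KO and TET_WT. Plagl1 in DNMT_WT, at −1.17, is the only called value. The estimates of Peg10, Nnat, the upstream start of Mest and the inner start of Grb10 lie above 0 in every line.

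Whether the effect of a knockout changed from D0 to D2 was tested directly. No member tile was called in the DNMT lines, where 0% of all tested tiles were called, or in the TET lines, where 0.00139% were. At an unadjusted p under 0.05 there were 10 of 78 in the DNMT lines and 2 of 78 in the TET lines, against 6.32% and 3.42% of all tested tiles, and voom called no window tile. The standard errors of these differences were 0.36 to 0.65 at the open promoter tiles.

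By the ratio of reads in tiles to the library total, values of the parental lines were made alike at D1 only. The lines were compared on that day. Plagl1 stood at 0.46, 0.54 and −0.60 in DNMT_WT, against 1.12, 1.32 and 1.71 in TET_WT. The lines did not overlap, and the difference was −1.25 ± 0.32 (interval −1.89 to −0.61, adjusted p = 0.042). It was the only 1 of the 78 window tiles called, where 0.625% of all tested tiles were called. The call was lost without replicate 3 of DNMT_WT (−0.88, adjusted p = 0.28), without any 1 of the 3 TET_WT libraries and in voom (−1.10, adjusted p = 0.13), while the sum over its 5 tiles gave −0.95 (adjusted p = 0.0094), where 3.29% of windows were called. Airn differed by 0.65 ± 0.43 and Grb10 by 0.30 ± 0.31 at its 5′ start, and neither passed. The tile downstream of the Impact body tile had 15, 21 and 4 reads in DNMT_WT at D1, against 26, 28 and 26 in TET_WT, and differed by −0.61 ± 0.37 (adjusted p = 0.53).

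Libraries held 4172670 to 23686796 reads in tiles, and the open promoter tiles had standard errors of 0.15 to 0.25 in the DNMT mean and 0.15 to 0.26 in the TET mean. D1 libraries held 5.62 to 46.8% mitochondrial reads and the others none, and their part in the D1 values of Mest and Impact was not tested. Promoter tiles of 9 pluripotency markers had a median level of 1.13 and 8 fibroblast markers −0.16, against −0.22 over all tested tiles. In the TET comparison all 8 fibroblast markers were positive, against 62.3% of gene start tiles. The markers had a median of 0.32, against 0.10 over gene start tiles. In limma 0 of the 8 were called and 1 had an unadjusted p under 0.05, against 16.5% of gene start tiles. The part of these markers in the member values was not tested.

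Other imprinted genes were read at their promoter tiles, from lists chosen with earlier results of these data known. Of all gene start tiles 3.83% were called in the TET comparison and 0.0112% in the DNMT comparison. At an unadjusted p under 0.05 these shares were 16.5% and 8.42%, to be set beside the unadjusted counts below. Whether the tiles of these imprinted genes hold the methylated regions was not checked. Of 15 other genes listed as maternally methylated, 2 rose in TET_KO, with a list median of 0.32. Peg13, a noncoding RNA gene, rose by 0.94 ± 0.23 (adjusted p = 0.0082) and Zdbf2 by 0.60 ± 0.18 (adjusted p = 0.032). Peg3 and Usp29, both among the 15, share the same tile. In the DNMT lines none of the 15 was called in limma, 3 had an unadjusted p under 0.05 and the median was 0.24, next to 0.22 for the member promoter tiles. Of 4 paternally methylated genes, H19 rose by 0.94 ± 0.27 in TET_KO (adjusted p = 0.025), and none was called in the DNMT lines (1 at an unadjusted p under 0.05). Of the 9 genes that host or face a member, none was called in the DNMT lines (1 at an unadjusted p under 0.05) or in the TET lines (0). Hymai and Sgce have the same tiles as Plagl1 and Peg10. Among 7 genes that protect imprints, Ctcf, an insulator protein gene, fell in TET_KO by 0.70 on the log2 scale (adjusted p = 0.00053), and none of the 7 was called in the DNMT lines (1 at an unadjusted p under 0.05). Of 15 germline genes silenced by methylation, 4 rose and 2 fell in TET_KO, the largest differences being 1.27 at Mael, 0.94 at Sycp3, −0.93 at Dpep3 and 0.87 at Slc25a31. In the DNMT lines none of the 15 was called (1 at an unadjusted p under 0.05). Among 15 housekeeping genes Pgk1 rose in TET_KO (0.98), among 9 pluripotency genes Nanog fell (−1.14), and of the formative, primitive endoderm and trophoblast genes, 4 each, none was called in limma (1, 0 and 1 at an unadjusted p under 0.05). In the DNMT lines limma called none of these genes or of the 8 fibroblast markers, and 1 housekeeping gene and 1 fibroblast marker had an unadjusted p under 0.05.

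Over the 12 group means, the gene start tiles outside these lists whose levels followed the mean of the 16 member promoter tiles most closely were those of Trim47 (Pearson r = 0.919), Mkrn1 (0.904) and Cyfip2 (0.90). The way the values were made differed by day and family, so these correlations are a description.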

How the data were processed

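ATAC-seq of 35 libraries was analysed from the log2 RPKM values that the authors deposited for 2-kb tiles, per the file headers. The submitters' processing notes name Bowtie2 2.4.1, cutadapt 2.3, Trim Galore 0.6.5 and the build GRCm38. Treatment of duplicates, masking and any shift of read ends are not given in the sources used here. Values were whole multiples of 1 read (100% within 0.01 read, an empty tile at 0.9 read), from which reads were recovered. The sum of reads over the library total behind the RPKM was 2.03 to 2.05 in all D1 libraries, against 1.15 (TET lines) and 1.02 (DNMT lines) on the other days, so values at D1 were made differently. The depth was 4172670 to 23686796 reads per library. Counting error limits the precision of tiles with few reads.

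Tested tiles were 143624: the highest 10% by mean, gene start tiles of GRCm38.p6 (RefSeq), and all tiles of members and lists. After quantile normalisation, limma 3.58.1 (R 4.3.3) fitted them with a trend, 12 group means, 23 residual degrees of freedom and 16 contrasts, 2-sided with Benjamini-Hochberg adjustment over tiles. A call is an adjusted p under 0.05. Alternatives were the deposited values, chromosome centring, other filters and pseudocounts, thinned reads, limma voom, subsets of groups, a replicate block, sums over 5 tiles, the highest tile of a window, and leaving out each library or all of D1. The fit was tested on simulated data. The members and the lists, and the rule that names all members and up to 4 called genes per list, were chosen with earlier results of these data known. Summaries used pandas 2.3.3. Same-numbered libraries had correlations of their deviations of −0.13 to 0.16, so no pairing was used.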

Additional observations from a re-analysis of the deposited data

Results flagged for a closer look

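The tile upstream of the Mest main start (chr6:30736001-30738000) drew attention because the effects of the knockouts differed there: the DNMT effect minus the TET effect was 1.25 ± 0.29 by the test of that difference in limma (adjusted p = 0.013). DNMT_KO minus DNMT_WT was 1.59 at D0, −0.41 at D1 and 1.08 at D2, and TET_KO minus TET_WT was 0.03, −0.28 and −1.22, so both were negative at D1. The cause was not tested. Groups of 2 or 3 libraries are too small to look for single outlying libraries.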

How the results depend on the processing

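Counts of called window tiles were small, and several moved. For the DNMT effect minus the TET effect the count of 1 became 2 with the deposited values, the highest 5% of tiles, a pseudocount of 2 reads and voom, and 0 with no filter. For the parental lines at D1 the count of 1 became 0 with chromosome centring, no filter, thinned reads, voom, only the groups compared and the replicate block. For D2 against D0 in DNMT_KO the count of 1 became 0 with no filter and only the groups compared, and 2 without D1. In DNMT_WT the count of 3 became 0 with no filter, thinned reads, voom and only the groups compared, 1 when only the highest tile of each window was read, 2 with the deposited values and 4 with the replicate block. In TET_KO the count of 0 became 1 with voom and only the groups compared, and in TET_WT 4 with voom. For TET_KO against TET_WT it became 4 with voom and 1 with only the groups compared, and at D2 1 with thinned reads and voom. For DNMT_KO against DNMT_WT it became 1 without D1. Sums over 5 tiles count other units, 16 overlapping windows, of which 2 were called for the DNMT effect minus the TET effect, 2 for TET_KO against TET_WT, 1 for the parental lines and 0 for D2 against D0 in DNMT_KO and in DNMT_WT. With each library left out in turn the counts ran from 0 to 2 for D2 against D0 in DNMT_KO, 0 to 4 in DNMT_WT, 0 to 1 for the parental lines, 1 to 2 for the DNMT effect minus the TET effect and 0 to 1 for the TET effect. Counts for the DNMT lines by day, the TET lines at D0 and D1 and the change of an effect from D0 to D2 stayed at 0 in every setting. The causes were not tested.

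No called value turned sign. Among uncalled values, the TET difference at Mcts2 became −0.028 as deposited, −0.067 with chromosome centring, −0.011 as a window sum and −0.095 without D1, and that at Nap1l5 −0.081 as deposited. With thinned reads the TET differences at Nnat and the upstream Mest start became 0.40 and 0.26. The DNMT difference at the 5′ start of Grb10 was −0.17 as a window sum. Without D1, an alternative chosen after seeing the data, the upstream Mest start gave −0.049 and the Impact body tile 0.19. With each library left out these ran from −0.041 to 0.16 at the upstream Mest start and −0.18 to 0.0052 at Impact (DNMT), and from −0.086 to 0.13 at Mcts2 and −0.010 to 0.18 at Nap1l5 (TET). The replicate numbers did not pair the libraries. The replicate block took the Plagl1 difference between the parental lines to the other side of the threshold (−1.25, adjusted p = 0.061), brought the Peg10 promoter tile of DNMT_WT, D2 against D0, under it (1.05, adjusted p = 0.0493) and changed no other call of a member tile. Depth limits the tiles with few reads: distal Snrpn starts, the annotated 5′ end of Impact and the called Impact and Nap1l5 tiles.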
